A study of Mus musculus with 8 samples.

Results

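The subject was a set of 10 genes by which cells sense microbes, listed by name for their function, with earlier results of these data known: the toll-like receptor (TLR) genes Tlr2, Tlr3 and Tlr4 with the adaptor gene Myd88, the NOD receptor genes Nod1 and Nod2 with the kinase gene Ripk2, and the inflammasome genes Nlrp3, Casp1 and Casp4. They are 10 of 21521 protein-coding genes on chromosomes 1 to 19 and X in the RefSeq gene table for GRCm38.p6. Binding of the NF-kB subunit RelA had been mapped by ChIP-seq in primary embryonic fibroblasts from wild-type C57BL/6 mice. All cells were kept overnight in low serum, and TNF, a cytokine that activates NF-kB, was given at 10 ng/ml. The RelA libraries fell into 3 groups of 2, at 0, 0.5 and 3 h of TNF, and 2 libraries of input DNA were made beside them. A single list of 9829 peaks was analysed, which gives a start and an end for each peak and nothing per library. No change with time, no height of binding and no spread between replicates could therefore be measured, and the depth was unknown. No test was made: every comparison below is a description of 1 list. Peak positions carry no information on RNA, so whether these genes were transcribed in the fibroblasts was not measured.

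TLRs recognise microbial molecules at the cell surface or in endosomes, and NOD receptors recognise fragments of bacterial cell wall in the cytoplasm. Signals from both reach the IKK kinases, which release NF-kB to the nucleus. An inflammasome is a cytoplasmic complex, assembled by a sensor such as NLRP3, that activates inflammatory caspases. Transcription of Nlrp3 through NF-kB is the textbook priming step of this pathway, and Tlr2 is a textbook NF-kB target.

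The sequences that follow are shown because they carry kappaB matches of the promoters that a RelA peak covered. A match of Tlr3 is added, as its promoter carries the same kind of sequence but had no peak within 50 kb. They are RefSeq sequence of GRCm38.p6 (mm10), written 5′ to 3′ in the direction of transcription. For Nlrp3 and Casp4 all 250 bases before the start site are given. For Tlr2 and Tlr3, whose listed start sites lie inside the longest extent of the gene, 30 bases around the first consensus match are given. Capitals mark matches, on either strand, to the pattern GGGNNNNNCC, a loose form of the kappaB element that NF-kB dimers bind. A match is a run of letters and was not shown to be a binding site.

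Tlr2, chr3:83841762-83841791, minus strand: taggacacctGGGGAATTCCCacacggagc
Tlr3, chr8:45410572-45410601, minus strand: agttgtttctGGGAGTTTCCtgcttttgag
Nlrp3, chr11:59541319-59541568, plus strand: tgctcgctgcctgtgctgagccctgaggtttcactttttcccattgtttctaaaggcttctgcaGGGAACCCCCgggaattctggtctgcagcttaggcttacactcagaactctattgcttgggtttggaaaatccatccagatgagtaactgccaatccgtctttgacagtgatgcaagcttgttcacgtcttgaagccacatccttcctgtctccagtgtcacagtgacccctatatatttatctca
Casp4, chr9:5308599-5308848, plus strand: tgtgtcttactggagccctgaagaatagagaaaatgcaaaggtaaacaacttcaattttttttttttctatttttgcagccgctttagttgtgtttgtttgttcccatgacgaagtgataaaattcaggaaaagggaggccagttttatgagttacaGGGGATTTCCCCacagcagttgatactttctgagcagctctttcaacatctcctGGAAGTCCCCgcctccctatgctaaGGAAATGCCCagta

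RelA peaks lay around 8 of the 10 genes, with the peak centre inside the gene or within 50 kb of either end. The exceptions were Tlr3 and Tlr4. Among all protein-coding genes, 43.2% had such a peak, and among those of at most 50 kb, a length that no member exceeded, 38.7%. The members' windows held 14 distinct peaks in 15 combinations of a gene and a peak, because Casp1 and Casp4 shared 1 peak. Ripk2 and Nod2 had 3 peaks each, and 7.36% of protein-coding genes had at least as many. Tlr2, Nod1 and Nlrp3 had 2 each, and Myd88, Casp1 and Casp4 had 1. Casp4, Nlrp3, Tlr2 and Ripk2, 4 of the 10, had an end less than 1 kb from a peak centre, against 6.34% of protein-coding genes. The median distance from a member's nearer end to the nearest peak centre was 1.33 kb, against 70.8 kb over all protein-coding genes. With only the peaks at or above the list's median width, these medians were 20.1 and 144 kb. The members were proposed with results from this list already known, so these shares describe the genes and do not support a claim about the pathway.

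**Figure D1:**
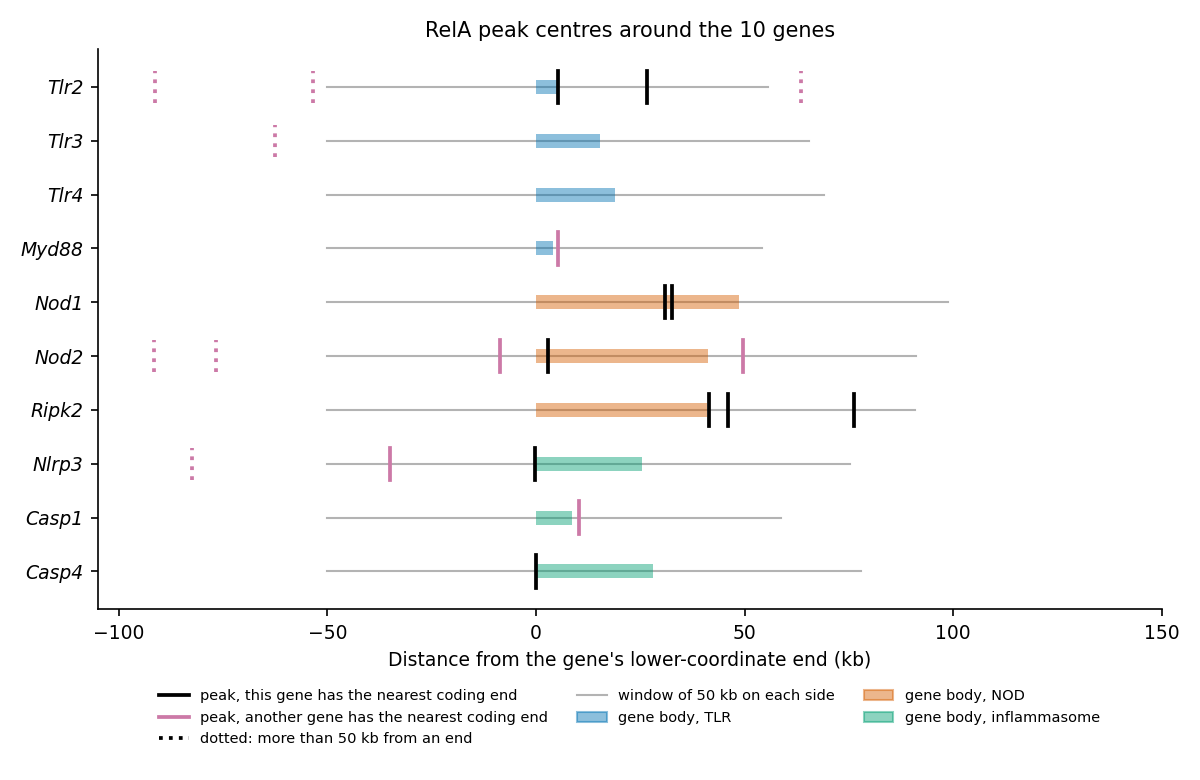
Peak centres (vertical bars) around each gene, drawn to scale by distance in kb from the gene's lower-coordinate end, with the gene body as a coloured box and the 50 kb window as a grey line. Bars are black where the gene itself has the nearest protein-coding end, pink where another gene has it, and dotted beyond 50 kb. Tlr3 and Tlr4 have no bar inside their windows, and Ripk2 and Nod2 have 3.

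The members were then taken by role, starting with the receptors of the TLR group. Tlr2, on chromosome 3 from 83836272 to 83841824, encodes a cell surface receptor for bacterial lipopeptides. It had a peak of 826 bp (chr3:83841255-83842080), centred 0.157 kb inside the gene's outermost end and 59.5 bp before the listed start site. That peak spanned all 300 bases of the promoter entry, from 250 before the start site to 49 after it. The second peak of Tlr2 was 929 bp wide, with 87.0% of the list narrower, and lay 21.4 kb before the start (chr3:83862505-83863433). Tlr2 had the nearest protein-coding end to both. Just beyond the window, peaks at 53.4 and 58.1 kb from Tlr2 were nearer to its neighbours Sfrp2, a gene for a secreted WNT antagonist, and Tmem131l.

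Tlr3 and Tlr4 differed from Tlr2 in having no peak inside or within 50 kb. Tlr3, on chromosome 8 from 45395665 to 45411075, encodes the endosomal receptor for double-stranded RNA. Its nearest peak centre was 62.6 kb away, at 0.0700 kb from the end of the cytochrome P450 gene Cyp4v3, and 47.1% of protein-coding genes had a peak closer than that. Tlr4, on chromosome 4 from 66827551 to 66846581, encodes the receptor for lipopolysaccharide. Its nearest peak lay 196 kb away (chr4:67042576-67043144), and 74.0% of protein-coding genes had one closer. Tlr3 was the member just outside the 50 kb limit, and Nod1, at 16.0 kb, was the farthest member inside it.

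Myd88, on chromosome 9 from 119335934 to 119340018, encodes the adaptor used by all TLRs except TLR3. Its only peak was 629 bp wide and lay 1.16 kb before its start (chr9:119340868-119341496). The nearest protein-coding end to that peak was that of Acaa1a, a gene for a peroxisomal thiolase, at 0.154 kb. The 2 genes are 1.01 kb apart, and the peak covered the whole promoter entry of Acaa1a and no base of the entry of Myd88. Oxsr1 and Xylb also lay within 50 kb of this peak, so a window around Myd88 alone does not separate it from 3 other genes.

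The NOD group had the most peaks, 8 over 3 genes, a mean of 2.67 per gene against 0.747 over all protein-coding genes. These genes are also the longest, with a median of 41.2 kb against 25.4 kb (inflammasome) and 10.5 kb (TLR). The windows searched around them were therefore wider. Nod1, on chromosome 6 from 54923942 to 54972674, encodes a receptor for peptidoglycan fragments that carry diaminopimelic acid. Both of its peaks were inside the gene, 15.0 and 16.7 kb after the nearer of its 2 listed start sites and 1.73 kb from each other. They were 416 bp (chr6:54956449-54956864) and 665 bp (chr6:54954595-54955259) wide, and the former was among the narrowest of the list, with 0.946% of peaks narrower. Neither overlapped a promoter entry of Nod1.

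Nod2, on chromosome 8 from 88647315 to 88688474, encodes the receptor for muramyl dipeptide. A peak of 864 bp (chr8:88649868-88650731) lay inside it, 2.95 kb after its start, and was the only peak of Nod2 for which Nod2 had the nearest protein-coding end. A peak of 668 bp (chr8:88638391-88639058) lay 8.62 kb before the start and was closer, at 2.59 kb, to Snx20, a sorting nexin gene 11.2 kb from Nod2. The widest peak of the locus, 1091 bp (chr8:88696417-88697507), lay 8.49 kb past the far end of Nod2 and 0.0840 kb from Cyld, the deubiquitinase gene, whose promoter entry it covered in full. Peaks at 76.6 and 91.5 kb on the Snx20 side of Nod2, outside the window, had the WNT pathway gene Nkd1 as their nearest.

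Ripk2, on chromosome 4 from 16122732 to 16163678, encodes the kinase that relays signals from NOD1 and NOD2. Its 3 peaks all lay beyond the gene's higher-coordinate end, and no other protein-coding gene was within 50 kb of any of them. Their centres were 0.528 kb (chr4:16163924-16164489), 5.15 kb (chr4:16168261-16169396) and 35.2 kb (chr4:16198587-16199260) from that end. The middle peak was the widest of all 14, at 1136 bp, and 96.0% of the list was narrower. The other two were 566 and 674 bp wide. Among genes of any kind, the noncoding gene A530072M11Rik had the nearest end to all 3 peaks, 0.0965 kb from the first of them.

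Nlrp3, on chromosome 11 from 59541569 to 59566955, encodes the sensor of the best-studied inflammasome. A narrow peak of 507 bp (chr11:59541189-59541695; 9.03% of the list was narrower) was centred 0.127 kb before the upstream of its 2 start sites and covered that whole promoter entry, but no base of the downstream one. The other peak, 865 bp (chr11:59506140-59507004), lay 35.0 kb before the start and 0.0680 kb from the end of the zinc finger gene Zkscan17.

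Casp4 and Casp1 encode inflammatory caspases: Casp4 protein acts in the response to lipopolysaccharide in the cytoplasm, and Casp1 protein cleaves the precursors of interleukin-1 beta and interleukin-18. Casp1 (chromosome 9, 5298517 to 5307281) and Casp4 (5308849 to 5336791) lie head to tail, both on the plus strand and 1.57 kb apart. They shared 1 peak of 731 bp (chr9:5308416-5309146). Its centre was 0.0680 kb before the outer of the 2 listed starts of Casp4, which is also the gene's end. By distance to a gene end this was the closest of all members, and only 0.818% of protein-coding genes had a closer peak. For Casp1 the same peak lay 1.5 kb past the far end of the gene and 10.3 kb after its start. Casp12, a further gene of this caspase cluster, also had the peak in its window, at 36.7 kb.

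The 3 groups were set side by side by distance. The nearest distances were 0.0680, 0.127 and 1.5 kb for the inflammasome genes, 0.528, 2.98 and 16.0 kb for the NOD genes, and 0.157, 1.16, 62.6 and 196 kb for the TLR genes. The groups overlapped: Tlr2 lay closer to a peak than any NOD gene, and Casp1 farther than Tlr2, Myd88 and Ripk2. With 3 or 4 genes in each group, the difference between groups was not tested. A peak centre inside the gene was found for 3 members, Tlr2, Nod1 and Nod2, against 14.6% of protein-coding genes, and that share depends on gene length.

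**Figure D2:**
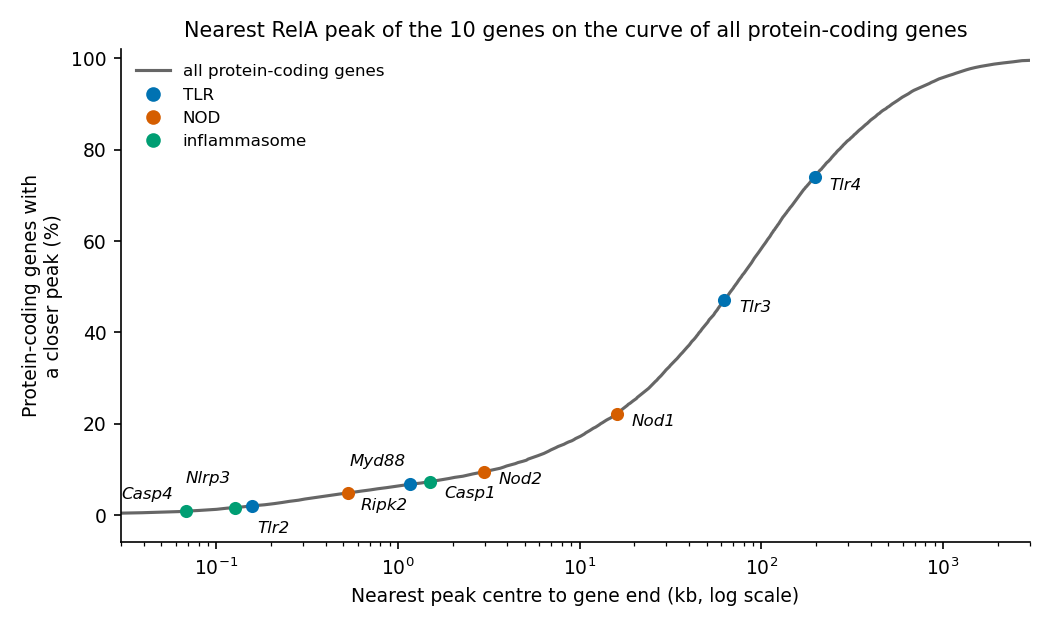
Distance from each gene to its nearest peak centre (horizontal, kb, log scale) against the percentage of protein-coding genes with a closer peak (vertical), coloured by group, with all protein-coding genes as the grey curve. Casp4, Nlrp3 and Tlr2 sit at the lower left, at 0.0680 to 0.157 kb, and Tlr3 and Tlr4 on the steep part, at 62.6 and 196 kb.

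Sharing was counted next, since a window of 50 kb takes in neighbours. In 10 of the 15 combinations of a member and a peak (66.7%), the member itself had the nearest protein-coding end, against 46.7% of such combinations over all protein-coding genes. Tlr2, Nod1, Ripk2 and Casp4 had the nearest end to every one of their peaks, and Myd88 and Casp1 to none. Of the 14 distinct peaks, 4 had a gene outside the set as the nearest: Acaa1a, Snx20, Cyld and Zkscan17. With noncoding genes counted as well, this became 7, through the 3 peaks of Ripk2.

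Peak width did not set the members apart. Their 14 peaks ranged from 416 to 1136 bp with a median of 702.5 bp, and the whole list had a median of 687 bp with quartiles of 587 and 816 bp. At or above the list's median were 7 of the 14. Among the peaks nearest to each of the 8 genes, those of Nod1 (416 bp), Nlrp3 (507 bp) and Ripk2 (566 bp) were narrower than the lower quartile of the list. Those of Tlr2 (826 bp) and Nod2 (864 bp) were wider than the upper one.

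**Figure D3:**
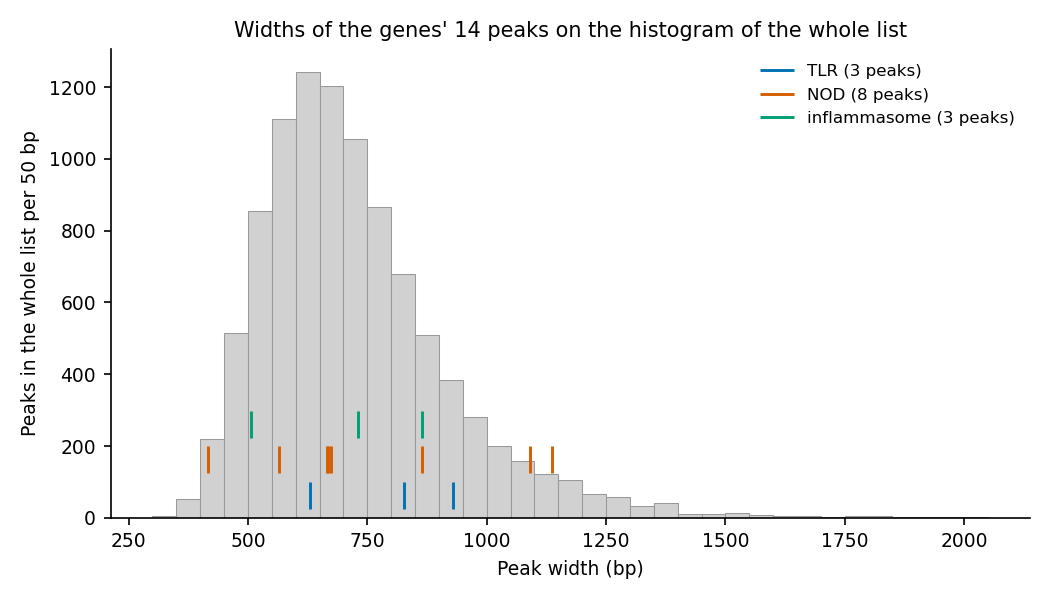
Widths in bp of the 14 peaks (coloured bars, 1 row per group) over the histogram of all 9829 peaks, counted per 50 bp. The members' peaks run from 416 to 1136 bp across the body of the distribution.

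The promoter sequences were then read against the peaks. Entries were found for 8 members (11 entries, as Nod1, Nlrp3 and Casp4 have 2), not for Tlr4 and Ripk2. A peak overlapped an entry of 3 of these 8 genes, Tlr2, Nlrp3 and Casp4, against 5.59% of the protein-coding genes with an entry, and in each case it covered all 300 bases. The loose pattern GGGNNNNNCC, on either strand, is common: 51.1% of all 32619 promoters of this length held it, and 77.2% of the 1353 that a peak overlapped. Promoters with a peak were also richer in G and C, with a median of 62.0% against 53.0% in all promoters. The part of base composition in this difference was not tested. A strict form, GGGNNTTTCC, which lies within the loose one, was in 1.64% of all promoters and in 7.83% of those with a peak. A degenerate kappaB consensus was searched as well, GGGRNWYYCC (R is A or G, W is A or T, Y is C or T). Also a subset of the loose pattern and added after the Tlr2 promoter had been read, it was in 4.53% and 23.0%.

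All 3 covered promoters held the consensus, against the 23.0% of promoters with a peak given above. As it was added after the Tlr2 promoter had been read, its presence in Tlr2 was known beforehand and carries no weight. The planned strict form was found in Casp4 only, not in Tlr2 or Nlrp3. In Tlr2, GGGGAATTCC began 173 bases before the start, overlapping GGGAATTCCC by all but 1 base, and these letters lay 108 to 109 bp from the peak centre. A further match, GGGACATCCC, spanned the start site, from 8 bases before it to 1 after. In Casp4 the match GGGGATTTCC, which also fits the strict form, lay 93 to 84 bases before the start and 20.5 bp from the peak centre. Casp4 held a second strict match, GGGCATTTCC on the opposite strand, 14 to 5 bases before the start, and a loose one, GGGGACTTCC, between them. In Nlrp3 the only consensus match was GGGGGTTCCC on the opposite strand, 186 to 177 bases before the start and 54.5 bp from the peak centre.

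Of the 5 members with an entry that no peak overlapped, Tlr3 also held a consensus match. It was GGGAGTTTCC, 211 to 202 bases before the start, and it fits the strict form as well. Such a promoter without a peak was the more usual case: a peak overlapped 19.8% of promoters with a strict match and 21.1% of those with the consensus, against 4.15% of all promoters. The entries of Nod2 and Casp1 and the outer entry of Nod1 held loose matches only, and the other entry of Nod1 held none. That of Myd88 held none, but it held GAAAGCGAAA, 40 to 31 bases before the start, which fits the interferon response pattern GAAANNGAAA found in 3.46% of all promoters. The AP-1 pattern TGANTCA, in 7.85% of all promoters, was in no entry of the 8 members.

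Among the neighbours whose promoters lay under the members' peaks, the Cyld entry held the strict match GGGACTTTCC on the opposite strand, 155 to 146 bases before its start. The Zkscan17 entry held GGGAGATCCC across its start. The Acaa1a entry, under the Myd88 peak, held loose matches only. The rest of each peak was not searched, because only promoter sequence was used here. No sequence was therefore read under the peaks inside Nod1 or the inner peak of Nod2.

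**Figure D4:**
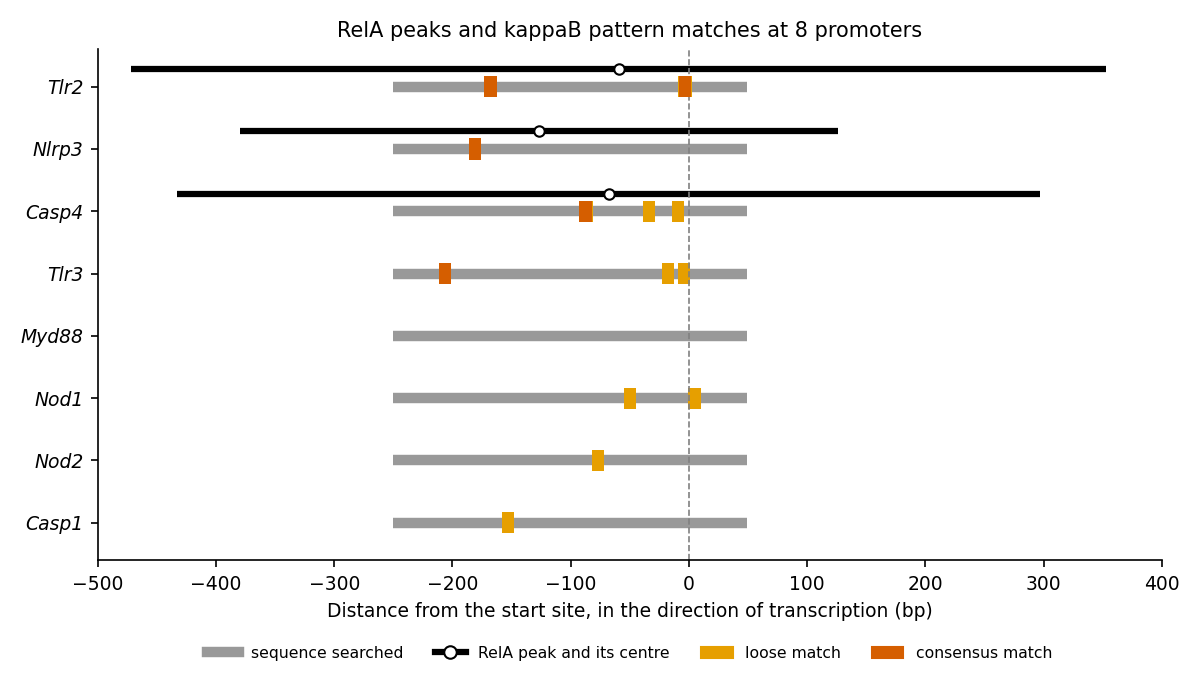
Promoter entries of 8 members (grey bars, 250 bases before to 49 after the start site at 0, in bp along the direction of transcription), with RelA peaks (black bars, centre as a circle) and kappaB matches (light orange loose, dark orange consensus). For Nod1, Nlrp3 and Casp4 1 of 2 entries is drawn. Peaks cover Tlr2, Nlrp3 and Casp4, and Tlr3 has a consensus match with no peak.

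Base composition differed among the 3 covered promoters. That of Tlr2 was 62.0% G or C with 11 CpG dinucleotides, and the median of promoters with a peak was also 62.0%, with 21 CpG. Those of Nlrp3 (47.3%, 4 CpG) and Casp4 (42.0%, 5 CpG) were poorer in G and C than most: only 7.76% and 2.37% of promoters with a peak had a lower G and C content, and 6.95% and 9.76% had fewer CpG. The median of all promoters was 53.0% with 7 CpG.

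Other genes of innate sensing were described with 8 lists written from general knowledge, 77 genes in all with the 10 members among them. These lists, too, were chosen with earlier results of these data known, so their shares describe the genes only. Of the 67 that are not members, 35 (52.2%) had a peak inside or within 50 kb, against the 43.2% of all protein-coding genes given above, and 8 (11.9%) had one within 1 kb of an end, against 6.34%. Among the 12 toll-like receptor genes, 6 (50%) had a peak in the window. Tlr1 and Tlr6 had the same nearest peak, and that of Tlr9 lay 0.052 kb from Alas1. Besides Tlr2, 2 toll-like receptor genes had a peak within 1 kb. They were Tlr5, the flagellin receptor gene, at 0.0725 kb, and Tlr6, a partner of TLR2, at 0.959 kb from a peak that lay closer to Fam114a1 (0.0915 kb). Among co-receptors and trafficking genes, 4 of 8 had a peak in the window and none within 1 kb. The closest were Lbp, the lipopolysaccharide-binding protein gene (3.49 kb), Ly86 (16.0 kb) and Ly96, which encodes the MD-2 partner of TLR4 (27.0 kb).

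Downstream of the receptors, 7 of 12 adaptor and IRAK kinase genes (58.3%) had a peak in the window. The share of all protein-coding genes to set beside this and the lists below is 43.2%. Irak3, which encodes an inhibitory kinase of TLR signalling, had one of 936 bp at 0.512 kb, and Traf6, the ubiquitin ligase gene on which MyD88 signals converge, had one of 1301 bp at 0.581 kb. In the NOD list, 6 of 10 genes (60%) had a peak. Slc15a3, a transporter gene, and Erbin, which encodes a NOD2-binding protein, had one at 0.103 and 0.191 kb, both 478 bp wide. Of the inflammasome sensors, 6 of 12 (50%) had a peak, and none but Nlrp3 had one within 1 kb. Of the adaptors, caspases and outputs, 8 of 10 (80%) had a peak. Casp1, Casp4 and Casp12 among them were counted through the same peak, which lay nearest to Casp4. Gsdmd, the gene for the pore-forming protein gasdermin D that inflammatory caspases cleave, had 3 peaks, the nearest at 0.154 kb.

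**Figure D5:**
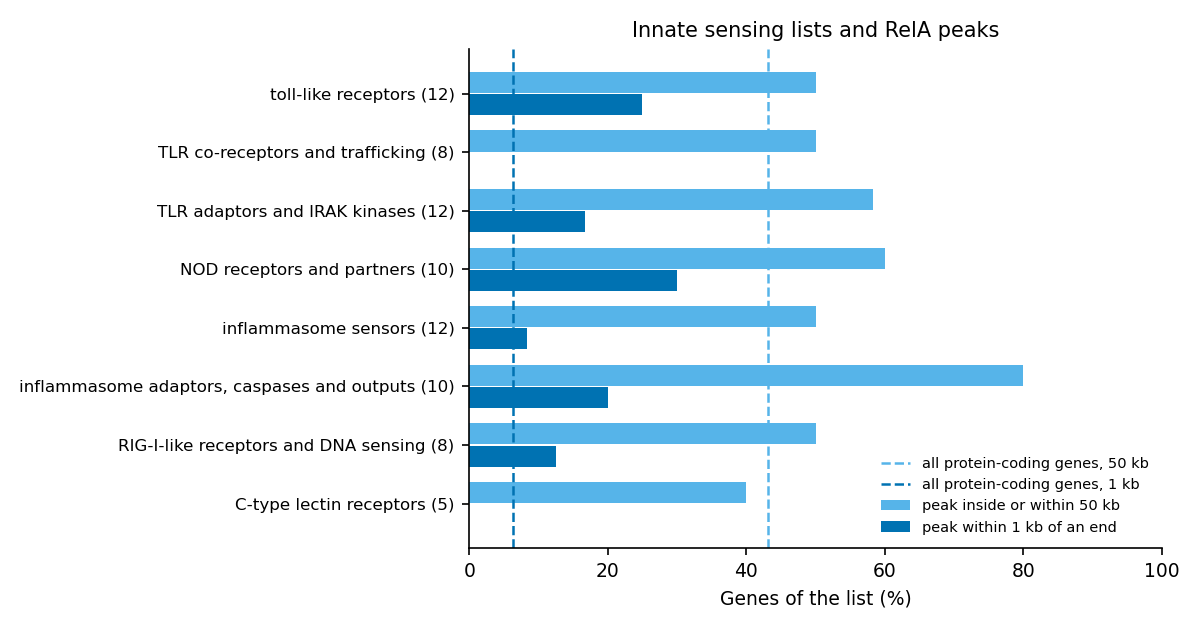
Percentage of genes in each list with a peak inside or within 50 kb (light bars) and within 1 kb of an end (dark bars), with the number of genes in brackets and all protein-coding genes as dashed lines (43.2% and 6.34%). The adaptors, caspases and outputs reach 80% in the wide window, with Casp1, Casp4 and Casp12 counted through the same peak. The dark bar is absent for 2 lists, which have no gene within 1 kb.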

How the data were processed

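RelA ChIP-seq and input DNA libraries (8 in all) were made from mouse embryonic fibroblasts cross-linked with disuccinimidyl glutarate and formaldehyde, per the labels' protocols, which can also hold proteins that reach DNA through others. The tools named, per the submitters' processing notes, are MACS2, deepTools, Picard 1.13, SAMtools, Bowtie2 2.3 and cutadapt 1.9.1, and the build is mm10. How peaks were thresholded or libraries pooled is something not given in the sources used here. Values as deposited are peak starts and ends in bp (3 columns), and starts were shifted to count from 1. The 6 peaks on contigs with no chromosome position stayed out of gene counts.

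Genes came from the RefSeq table of GRCm38.p6 (mm10), which held 49209 genes after 345 rows were left out. Those rows follow a step back in position within a chromosome's order, which was taken to mark positions on other scaffolds. Promoters came from RefSeq sequences of the same build. All 10 members and all 77 list genes matched, 2 by an older symbol. Distances run from the peak centre to the nearer gene end, or to the listed start where stated. Scripts ran in Python 3.11.15 with pandas 2.3.3 and were tested on simulated peaks. The members and lists were chosen with earlier results of these data known. Named genes were all members, in each list the genes with a peak within 1 kb or else the 3 nearest within 50 kb, and neighbours with the end nearest to a member's peak. Casp12, Oxsr1, Xylb, Tlr1, Tlr9, Alas1 and Fam114a1 and the genes of the closing observations that this leaves out were named after their values were seen.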

Additional observations from a re-analysis of the deposited data

How the results depend on the processing

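The number of members with a peak was 8 with a window of 10 kb (23.1% of protein-coding genes had a peak there), 9 with 100 kb (58.7%), 8 with any overlap of the window or with peaks within 1 kb merged, and 6 with the wider peaks only (at or above the median width of the list; 28.5%) or with each peak given only to the protein-coding gene with the nearest end (21.9%). The number of their peaks was 7 with the wider peaks only, 10 with the nearest gene only, and 11 to 21 over the other settings. Members within 1 kb of a peak (4) became 7 with a window of 5 kb (11.9% of protein-coding genes) and 2 with the wider peaks only (4.14%). The median nearest distance was 0.993 kb from the peak edge (70.5 kb over all protein-coding genes), 20.1 kb with the wider peaks only (144 kb), and 2.06 kb to the gene start (8 members with an entry). Peaks with an outside gene as the nearest numbered 7 with genes of any kind. The median width was 668 bp within 10 kb. Of the other pathway genes, 21 of 67 had a peak inside or within 10 kb. A promoter match was held by 7 of 8 members for the loose pattern, 2 for the strict one and 4 for the consensus, which was added after seeing the data. Of all promoter entries, 51.1%, 1.64% and 4.53% held these patterns. Those shares count entries and not genes, and a gene with 2 entries can match in either. No paired analysis was possible because the peak list holds no values per library.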

Other observations

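Of 8 genes of RIG-I-like receptors and DNA sensing, adaptors included, 4 (50%) had a peak inside or within 50 kb, against 43.2% of protein-coding genes. Ddx58, the RIG-I gene, had 3 peaks, the nearest 0.374 kb from its end. Cgas, which encodes the DNA sensor, had 2, the nearest at 5.00 kb and slightly closer to Mto1 (4.76 kb). The nearest peak of Ifih1, which encodes the other main RNA sensor, was 188 kb away, and that of the adaptor gene Mavs 145 kb. Among C-type lectin receptor genes and their kinase, Syk had 2 peaks, the nearest at 12.5 kb, and Clec7a had 1 at 34.5 kb that lay 0.0545 kb from Olr1. The nearest peak to Clec4n, Clec4d and Clec4e lay 434, 466 and 486 kb away. The receptor genes Tlr7 and Tlr8 on chromosome X had the same nearest peak, 1000 and 938 kb away.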
